A study of Mus musculus with 36 samples.

Results

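Lumican (Lum), matrix Gla protein (Mgp) and 8 other small secreted matrix proteins were followed in mouse mesenteric lymph node during treatment with a soluble lymphotoxin beta receptor. The 8 others were decorin (Dcn), biglycan (Bgn), osteoglycin (Ogn), fibromodulin (Fmod), Prelp, Sparc, Sparcl1 and fibulin 1 (Fbln1). Every probe set whose only gene symbol is 1 of these 10 was taken, which gave 24 of the 45137 probe sets of both arrays. Lum and Mgp were chosen by their values in these same samples, so their levels are given as a description with no test. The 8 others were chosen by protein class and were tested. That choice was made with earlier results of these data known, so their p-values are not free of that knowledge.

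The lymph nodes came from mice given PBS, which serve as day 0, or the soluble receptor for 1, 2, 3, 27 or 35 days. This decoy captures lymphotoxin and LIGHT, the ligands through which lymphocytes signal to lymph node stroma. With 6 groups, 3 samples per group and 2 Affymetrix arrays, here called A and B, there were 36 samples. The labels give no strain, sex, age, dose or number of injections, and leave unstated whether replicates were different mice. The p-values therefore measure only the spread between these samples. All 5 treated groups were set against the same 3 PBS samples, so their differences share that reference. No group received a control fusion protein and no PBS group accompanied days 27 and 35, so the age of the mice and the length of treatment cannot be told apart. For 1 day 1 sample of array B the source label does not name the tissue, and the title alone placed it on day 1.

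Small leucine-rich proteoglycans are secreted by fibroblasts and bind collagen fibrils, whose width and spacing they help to set. Mgp is a small protein that carries vitamin K-dependent Gla residues, binds bone morphogenetic proteins and keeps soft tissue free of mineral. Sparc, Sparcl1 and Fbln1 are secreted proteins that bind collagen, calcium or elastic and basement membrane components. In lymph nodes such proteins are products of the fibroblastic stroma, the capsule and the perivascular tissue. These samples are whole tissue, in which fewer cells of a type and less RNA per cell cannot be told apart.

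Values are the deposited linear intensities of a probe set, and a level is comparable between samples of 1 probe set but not between probe sets. Differences are log2 changes from limma, fitted over all 6 groups of an array with Benjamini-Hochberg adjustment over all tested probe sets of that array, and a probe set was called at an adjusted p under 0.05. Median intensity per array lay between 272.8 and 299.5 on array A and between 149.8 and 165.2 on array B. The lymph node label was checked against B and T cell markers, of which 10 of 12 passed the filter. Their summed intensity was 16950 to 17400 in PBS, 16380 to 18020 on day 1 and 16350 to 17100 on day 2. It lay wholly below PBS on day 3 (15990 to 16650), day 27 (15470 to 15980) and day 35 (15930 to 16240). Of the 10, Cd79a was called lower on days 27 and 35 (-0.385 and -0.352, both with adjusted p = 0.00594 in limma). Of all tested probe sets of array A, 2.6% and 5.58% were called lower on those days. Cd79a and Cd3d were also called lower on days 27 and 35 together than on days 1 to 3 (10.4% of all tested probe sets).

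Lum is a keratan sulfate proteoglycan that binds fibrillar collagen. Its probe set read 616.6, 678.1 and 582.1 in the PBS samples. On day 1 it read 929.9, 926.8 and 874.3, on day 2 835.5, 861 and 956.3, and on day 3 1185, 1107 and 1051. On day 27 the values were 1052, 838.6 and 980.3, and on day 35 they were 912, 950.3 and 1126. All 15 treated samples lay above all 3 PBS samples, and the highest group was day 3. Group means were 625.6 ± 48.7 (SD, n = 3) in PBS, 1114 ± 67.3 (SD, n = 3) on day 3 and 996.2 ± 114 (SD, n = 3) on day 35. The log2 change from PBS was 0.54, 0.50, 0.83, 0.61 and 0.67 on days 1, 2, 3, 27 and 35, each with a standard error of 0.095. These are 1.46, 1.41, 1.78, 1.53 and 1.59 fold. The samples of days 1, 2, 27 and 35 overlapped between groups.

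Mgp started at 1463, 1708 and 1539 in the PBS samples. It read 2575, 2303 and 2708 on day 1, 2884, 2739 and 3086 on day 2, and 2472, 2909 and 1948 on day 3. It read 1544, 1708 and 1401 on day 27 and 1412, 1141 and 1437 on day 35. All 9 samples of days 1 to 3 lay above every PBS sample and above every late sample. Day 27 overlapped PBS, and all 3 samples of day 35 lay below PBS. Of all tested probe sets of array A, 13.2% lay wholly below PBS on day 35 and 1.62% were wholly lower late than early. On days 1, 2 and 3, 7.14%, 9.5% and 9.08% lay wholly above PBS. The mean was 1570 ± 125 (SD, n = 3) in PBS, 2903 ± 174 (SD, n = 3) on day 2 and 1330 ± 164 (SD, n = 3) on day 35. The log2 change from PBS was 0.69, 0.89 and 0.62 on days 1, 2 and 3, which is 1.61, 1.85 and 1.54 fold, then -0.02 on day 27 and -0.24 on day 35. The standard error of each was 0.12.

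**Figure D1:**
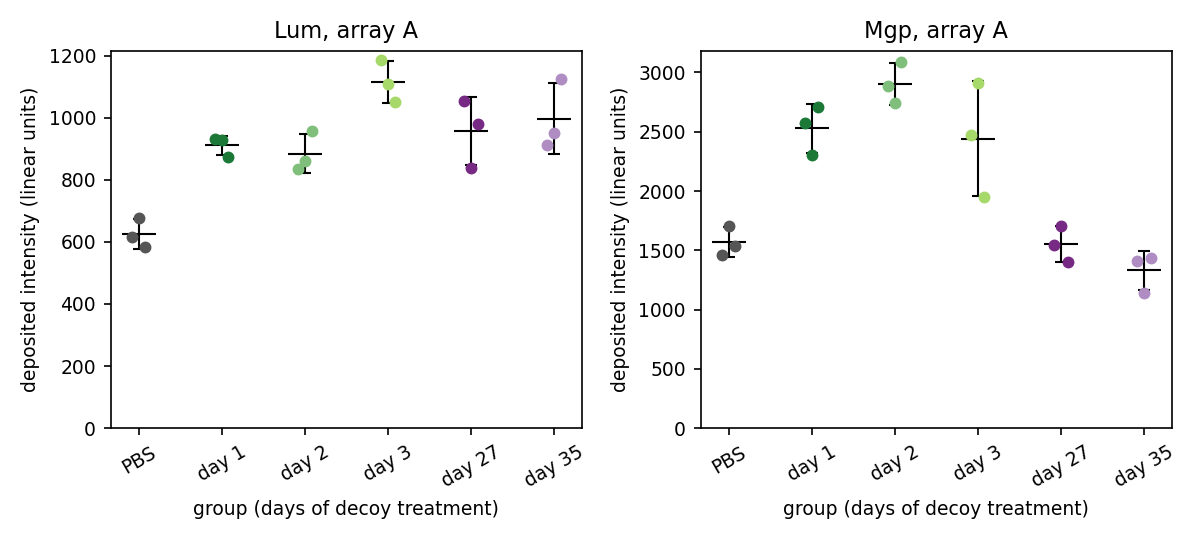
Deposited intensity (linear axis from 0) of the Lum and Mgp probe sets of array A by group, with 1 point per sample and the group mean as a bar. Lum lies above PBS in all 5 treated groups, while Mgp is above PBS on days 1 to 3 and at or below it on days 27 and 35.

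Both genes were higher than in PBS on days 1 to 3, Mgp with its highest mean on day 2 and Lum on day 3, and only Lum was higher on days 27 and 35. Lum had a median of 929.9 over the 9 early samples (days 1 to 3, from 835.5 to 1185) and of 965.3 over the 6 late samples (days 27 and 35, from 838.6 to 1126). Mgp had an early median of 2708 (from 1948 to 3086) and a late median of 1425 (from 1141 to 1708), with no overlap. Late minus early was 0.013 (SE 0.061) for Lum and -0.86 (SE 0.079) for Mgp on the log2 scale. The log2 change of Mgp minus that of Lum in the same sample was 0.14 ± 0.16 (SD, n = 3) on day 1 and 0.39 ± 0.063 (SD, n = 3) on day 2. It was -0.21 ± 0.26 (SD, n = 3) on day 3, where the 3 samples lay between -0.44 and 0.07. It was -0.63 ± 0.28 (SD, n = 3) on day 27 and -0.91 ± 0.19 (SD, n = 3) on day 35. All 6 late samples were below 0 and all 3 day 2 samples above it.

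The level of 42 small subunits of the mitochondrial respiratory chain moved with the late values of Mgp. These genes are not matrix genes and are given as a measure on which the libraries differed. The list was chosen with earlier results of these data known, so its counts are a description and not a test of the list. None of the 42 was called on days 1 to 3 (limma, with 0, 0 and 6 at an unadjusted p under 0.05). On day 27, 8 of the 42 fell, against 2.6% of all tested probe sets of array A called lower, and on day 35, 34 fell, against 5.58%. Between late and early, 38 fell, against 10.4% of all tested probe sets called lower. Their summed intensity was 71980 to 74470 in PBS, 56090 to 66730 on day 27 and 50290 to 57980 on day 35. Day 3 replicate 3, which had the lowest Mgp value of days 1 to 3, also had the lowest summed value of those days, 56410.

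With the mean of these subunits as a covariate, the log2 change of Mgp was 0.63, 0.85 and 0.78 on days 1, 2 and 3, then 0.34 on day 27 (SE 0.095) and 0.33 on day 35 (SE 0.12). Late minus early was then -0.42 (SE 0.09), the same direction at a smaller size. The log2 changes of Lum moved by less than 0.01 under the same covariate, to 0.61 on day 27 and 0.67 on day 35. Mgp minus Lum was then -0.27 on day 27 and -0.33 on day 35. The direction of Mgp on day 35 thus turned with the covariate, while the early values of Mgp above PBS did not. The part of these subunits in the late Mgp values was not tested. Over all tested probe sets of array A, the covariate lowered the number called on day 35 from 900 to 10. Without day 3 replicate 3, day 27 replicate 2 and day 35 replicate 3, which carry low array weights, Mgp was 0.78, -0.09 and -0.30 on days 3, 27 and 35 and Lum 0.88, 0.70 and 0.58.

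**Figure D2:**
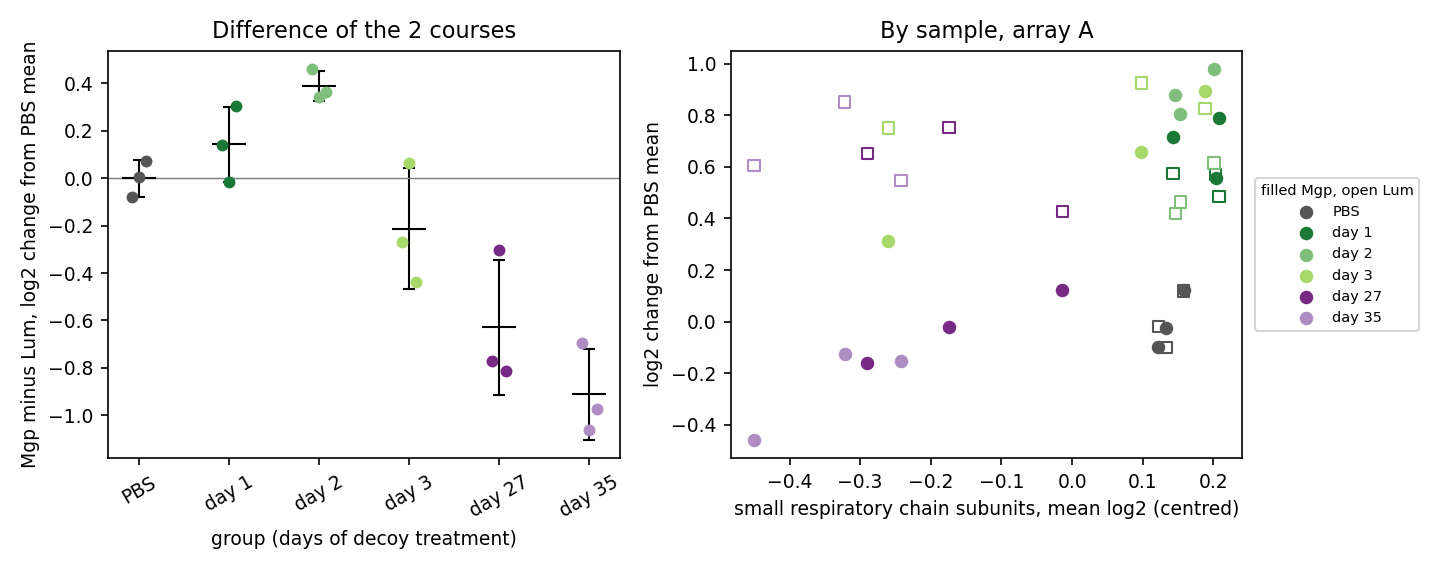
Left: log2 change of Mgp minus log2 change of Lum in each sample, by group, with group means as bars. Right: log2 change from the PBS mean of Mgp (filled) and Lum (open) against the centred mean log2 intensity of 42 small respiratory chain subunits, 1 point per sample. The difference is above 0 on day 2 and below 0 on days 27 and 35, and the subunit means of the late samples and of day 3 replicate 3 are the lowest, all under 0.

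Of the 8 members chosen by class, 19 probe sets passed the filter on dim values, and none rose against PBS on any day. On day 1, 0 of 19 were called in limma, with 0 at an unadjusted p under 0.05, against 0.0121% of all tested probe sets of both arrays called. On day 2, 0 of 19 were called and 5 had an unadjusted p under 0.05, against 0.0687% of all tested probe sets called. On day 3, 2 of 19 fell, against 0.242% of all called lower, and on day 27, 2 of 19 fell, against 1.45%. Those calls were all Fmod probe sets of array A, where the shares called lower were 0.417% on day 3 and 2.6% on day 27. These probe sets passed the filter through groups where they were high, with no day 27 array above the median intensity. On day 35, 0 of 19 were called and 4 had an unadjusted p under 0.05, against 5.45% of all called. Between late and early days, 2 of 19 rose, both of Ogn on array A, against 2.58% of all called higher on both arrays and 4.98% on array A. Between days 35 and 27, 0 of 19 were called in limma with 3 at an unadjusted p under 0.05, against 0% of all tested probe sets called. With array weights, 2 of 19 were called there, 2 on day 2, 3 on day 3, 6 on day 27, 1 on day 35 and 3 for late against early.

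Taking the brightest probe set of each of these 8 genes, the median log2 change was 0.083, 0.085, 0.10, 0.14 and 0.11 on days 1, 2, 3, 27 and 35. The median of all tested probe sets of array A was 0.022, 0.026, 0.019, 0.046 and 0.032. All treated samples lay above all PBS samples for 2 of 8 genes on day 1, against 7.14% of all tested probe sets. The same held for 2 of 8 on day 2, against 9.5%, for 3 of 8 on day 3, against 9.08%, for 1 of 8 on day 27, against 10.9%, and for 2 of 8 on day 35, against 15.9%.

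Dcn, the proteoglycan with a single chondroitin or dermatan sulfate chain that is encoded next to Lum, read 5824, 5474 and 5196 in PBS. It read 6070, 6019 and 5915 on day 1, 6368, 6285 and 6459 on day 2 and 6739, 6118 and 6377 on day 3, all above the PBS samples. On day 27 it read 6626, 5177 and 6228 and on day 35 6145, 5647 and 5384, overlapping PBS. The log2 change was 0.13, 0.21 and 0.22 on days 1 to 3 (SE 0.075), with adjusted p of 0.998, 0.746 and 0.285 in limma, so none was called. The 95% confidence interval on day 3 ran from 0.06 to 0.38. The day 27 change was 0.12 (adjusted p = 0.399 in limma), and without day 27 replicate 2 it was 0.23 and passed the threshold. A second Dcn probe set on array B was above the median intensity on 0 arrays and was not tested.

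Bgn, the related proteoglycan with 2 such chains, read 2028, 2167 and 1980 in PBS and 2343, 2740 and 2241 on day 35, without overlap. Its log2 change on day 35 was 0.24 (SE 0.11), with an adjusted p of 0.176 in limma. The other 2 probe sets of Bgn gave 0.26 and 0.22 on that day, with adjusted p of 0.0744 and 0.173. With the small subunit covariate the day 35 change of the brightest one was 0.015. On days 1, 2, 3 and 27 it stood, in the fit without that covariate, at 0.11, 0.098, 0.15 and 0.087, and none was called.

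**Figure D3:**
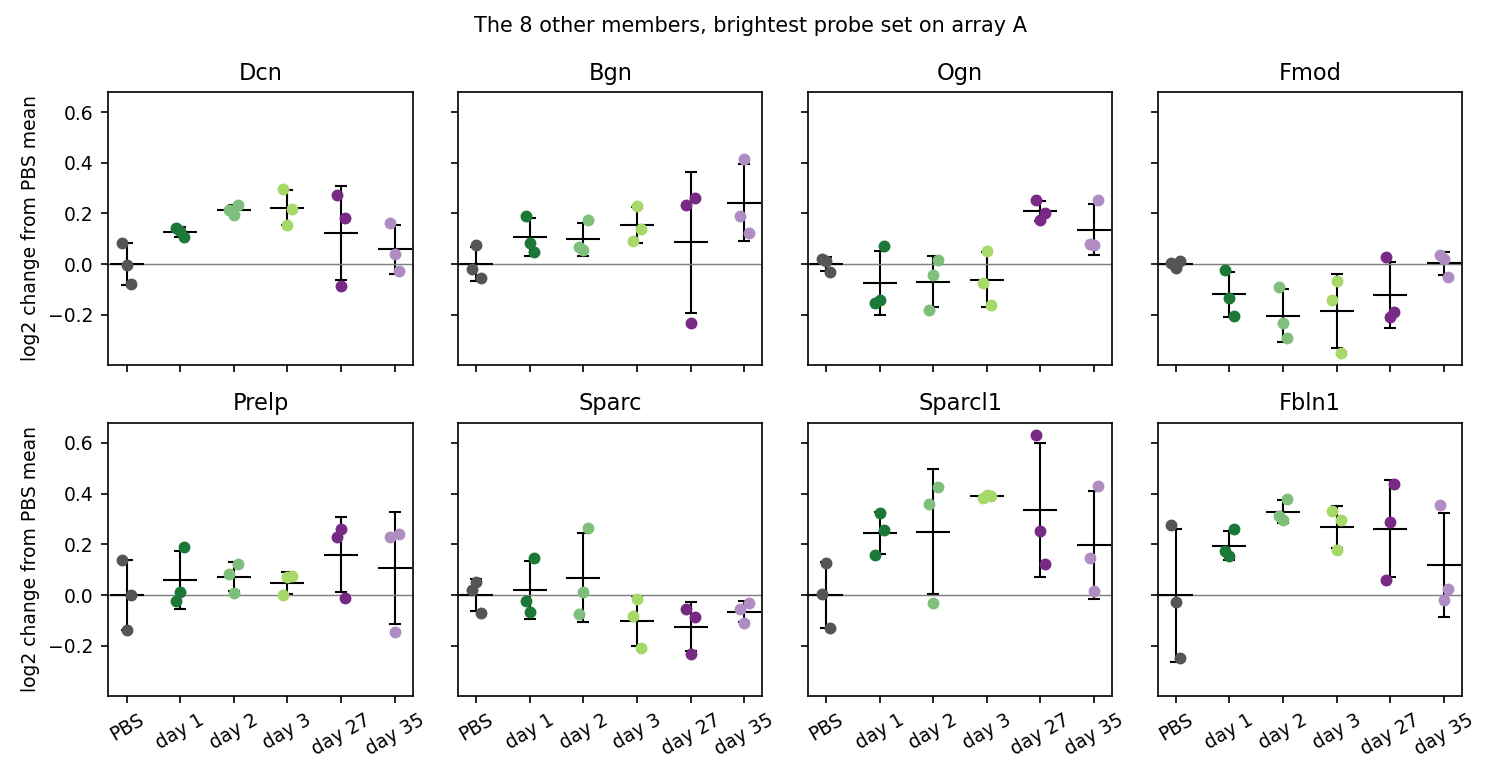
Log2 change from the PBS mean of the brightest array A probe set of each of the 8 members chosen by class, by group, with 1 point per sample and the group mean as a bar. Dcn, Sparcl1 and Bgn show samples above PBS in some groups, Fmod lies below PBS on days 1 to 3, and Ogn is higher on days 27 and 35 than on days 1 to 3.

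Ogn, a small keratan sulfate proteoglycan also called mimecan, was the only one of the 8 whose brightest probe set was called in any comparison. It read 316.2, 314.5 and 305.8 in PBS and had a median of 296.6 over the 9 early samples, from 275.3 to 328.2. Over the 6 late samples the median was 355.4, from 329.3 to 372.2, so that the late samples lay above every early one and above every PBS sample. Such separation of late from early, with late higher, was found in 0.409% of all tested probe sets of array A. Late minus early was 0.24 (SE 0.053) on the log2 scale, with an adjusted p of 0.00428 in limma. The call was kept when each of the 15 early and late arrays was left out in turn, with adjusted p from 0.0019 to 0.014. Against PBS, Ogn changed by -0.075, -0.07 and -0.062 on days 1 to 3 and by 0.21 and 0.14 on days 27 and 35, and none of these was called.

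The other Ogn probe set gave 0.18 (SE 0.058), late against early, with an adjusted p of 0.0371. That call was lost in 9 of the 15 fits that left out 1 array (day 1 replicates 1 and 2, day 2 replicates 1 and 2, day 3 replicate 3, any day 27 replicate or day 35 replicate 3), with adjusted p up to 0.0973. It was also lost in 5 of 11 other settings, with adjusted p up to 0.173: quantile and common median scaling, no filter on dim probe sets, the 3 arrays of low weight left out, and the small subunit covariate. Ogn thus moved the other way from Mgp, which was lower late than early, and differently from Lum, whose late and early values overlapped. No test of these differences between genes was run, since Lum and Mgp were selected on their values.

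Fmod binds collagen fibrils at the same sites as Lum and is encoded beside Prelp. Its brightest probe set read 706.6, 697.1 and 711.9 in PBS. It was lower in all 9 early samples, at 693.3, 643.2 and 612.5 on day 1, 663.1, 600.8 and 575.4 on day 2 and 640, 674 and 553.7 on day 3. Of all tested probe sets of array A, 3.63%, 4.81% and 6.96% lay wholly below PBS on days 1, 2 and 3. On day 35 the brightest Fmod probe set was back at 723.5, 715.7 and 680.9. The log2 change was -0.12, -0.20 and -0.18 on days 1 to 3 (SE 0.084), with adjusted p of 0.998, 0.833 and 0.467 in limma, so none was called.

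The dimmer Fmod probe sets carry the suffix that the array maker gives to probe sets whose probes can match other transcripts, and their values are uncertain for that reason. The fourth brightest of the 6 read 316.9, 335.3 and 292.4 in PBS, 247.7, 221.1 and 231.7 on day 2, 205.7, 204 and 236.8 on day 3, 224.4, 199.5 and 210.3 on day 27 and 267.2, 354.4 and 298.1 on day 35. It fell by 0.55 on the log2 scale on day 3 (SE 0.1, adjusted p = 0.0195 in limma) and by 0.57 on day 27 (adjusted p = 0.00478), and its change on day 35 was -0.05 (adjusted p = 0.833). The third brightest fell by 0.46 on day 3 (SE 0.094, adjusted p = 0.0296 in limma) and by 0.40 on day 27 (adjusted p = 0.0244). Its day 35 samples, 351.6, 417.2 and 358.3, overlapped its PBS samples of 369.9, 400.1 and 336.9. The difference between days 35 and 27 was 0.53 for the fourth brightest, with an adjusted p of 0.147, so it was not called.

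The call of the fourth brightest on day 27 held when any 1 array was left out, with adjusted p up to 0.031. Its call on day 3 was lost when any PBS array or day 3 replicate 1 or 2 was left out, with adjusted p up to 0.104. The day 3 call of the third brightest was lost without the same 5 arrays, with adjusted p up to 0.153. Its day 27 call was lost without PBS replicate 1 or 2 or day 27 replicate 1 or 3, with adjusted p up to 0.113. The next brightest after the main one changed by -0.29 on day 3 (SE 0.19) and was not called.

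The dimmest pair of Fmod probe sets did not pass the filter on dim values, with 2 and 0 of 18 arrays above the median intensity. Their group means ran from 283.9 ± 22 (SD, n = 3) in PBS to 212.7 ± 2.07 (SD, n = 3) on day 27 and 264.5 ± 18.6 (SD, n = 3) on day 35 for the brighter of the pair. For the other they ran from 191.1 ± 26 (SD, n = 3) to 148.1 ± 5.76 (SD, n = 3) and 202.7 ± 19.9 (SD, n = 3). Such probe sets may share probes, so they are not independent measurements of Fmod.

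**Figure D4:**
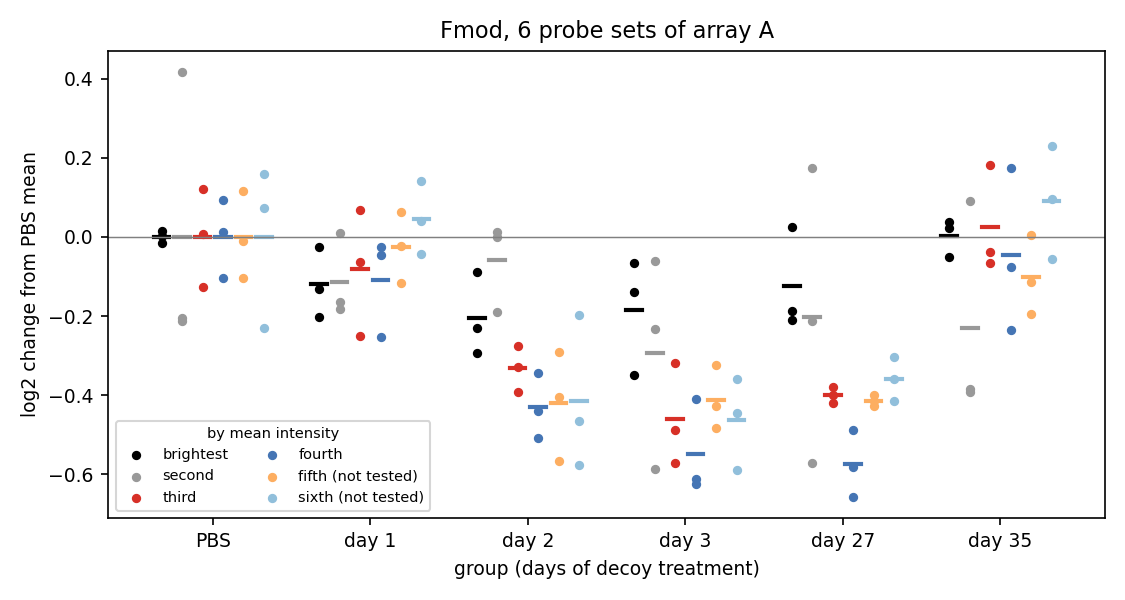
Log2 change from the PBS mean of the 6 Fmod probe sets of array A, ordered by mean intensity, with 1 point per sample and bars at the group means. The means of the 4 dimmest lie further below 0 on days 2, 3 and 27 than that of the brightest one and lie nearer to 0 on day 35, while the second brightest scatters widely.

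Prelp, a basic proteoglycan that links basement membrane to collagen, read 545.7, 450.9 and 495.4 in PBS. Every treated group overlapped that range, and the log2 change lay between 0.049 and 0.16 (SE 0.10). No Prelp probe set was called in any comparison.

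Sparc, a counter-adhesive collagen-binding protein, read 3053, 3119 and 2862 in PBS and overlapped PBS in all 5 treated groups. Its day 3 samples read 2841, 2980 and 2605, and its log2 changes ran from -0.12 on day 27 to 0.068 on day 2 (SE 0.084), none called. The other array A probe set was lower than PBS in all 3 day 3 samples, as were 6.96% of all tested probe sets of that array. Its change was -0.36 (SE 0.12), with an adjusted p of 0.258 in limma. The array B probe set gave 0.018, 0.18, 0.17, 0.13 and 0.23 on days 1, 2, 3, 27 and 35, so the Sparc probe sets did not share a direction on days 3, 27 and 35.

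Sparcl1, its close relative, found around blood vessels, read 392, 427.5 and 357.4 in PBS. It read 436.2, 489.6 and 467 on day 1 and 510.2, 514.8 and 512.4 on day 3, above every PBS sample. The log2 change on day 3 was 0.39 (SE 0.13), with a 95% confidence interval from 0.11 to 0.66 and an adjusted p of 0.276 in limma. On days 1, 2, 27 and 35 it was 0.24, 0.25, 0.34 and 0.20, and none was called.

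Fbln1, a calcium-binding protein of elastic fibres and basement membranes, read 636.2, 515.4 and 442.8 in PBS and 653.1, 645.7 and 683.6 on day 2. The day 2 samples lay above PBS, by 0.33 (SE 0.12), with an adjusted p of 0.752 in limma. Its other array A probe set gave -0.29, -0.14, -0.27, 0.15 and -0.37 on days 1, 2, 3, 27 and 35, and the array B one gave -0.17, -0.12, -0.054, -0.25 and -0.30. The direction of Fbln1 therefore depended on the probe set, and none was called.

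The genes with the course most like that of Lum over the 18 arrays were Mmp2 (Pearson r of 0.877), Col14a1 (0.861), Cyp51 (0.811), Col3a1 (0.804) and Egr1 (0.80), among 7800 genes. Among the members, Sparcl1 came nearest to Lum, at rank 24 (0.707), followed by Dcn at rank 231 (0.547) and Bgn at rank 319 (0.522). Mgp came at rank 2445 (0.214). For Mgp the nearest were H2aj (0.901), Igfbp4 (0.883), Ndufs3 (0.877), Psmb1 (0.871) and Ten1 (0.869). Among the members, Ogn (-0.553) and Fmod (-0.498) were the farthest from Mgp. These correlations describe arrays that share groups and differ in the level of the small subunits, and they carry no test.

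The collagens that these proteoglycans bind were listed with the members. All 10 were tested. On day 3, 1 of 10 rose, Col14a1, by 0.54 (SE 0.11, adjusted p = 0.0279 in limma), against 0.139% of all tested probe sets of array A called higher. On day 27, 2 of 10 rose, against 0.58%: Col14a1 by 0.50 (adjusted p = 0.0148) and Col5a2 by 0.38 (adjusted p = 0.0156). On day 35, 7 of 10 rose, against 1.77%. The 4 with the smallest adjusted p were Col5a2 (0.53), Col3a1 (0.76), Col6a3 (0.45) and Col1a1 (0.44), with adjusted p of 0.0013, 0.00265, 0.00282 and 0.00593 in limma. Col1a2, the partner chain of Col1a1, rose by 0.39 (SE 0.099, adjusted p = 0.0204).

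On the earlier days Col3a1 stood at 0.47, 0.62, 0.60 and 0.40 on days 1, 2, 3 and 27 (SE 0.13), with adjusted p of 0.998, 0.114, 0.0531 and 0.118 in limma, so it was not called. Col1a1 stood at 0.42 on day 2 (adjusted p = 0.114). The median over the 10 collagens was 0.14, 0.26, 0.22, 0.19 and 0.42 on days 1, 2, 3, 27 and 35. The list count on day 35 was 5 to 7 when 1 array was left out, 9 without the 3 arrays of low weight and 0 with the small subunits as a covariate. Under that covariate Col3a1 had an adjusted p of 0.165. The Col14a1 call on day 3 was lost without PBS replicate 1 or 3 or any day 3 array, with adjusted p up to 0.146. On day 27 it was lost without PBS replicate 1 or 3 or day 27 replicate 1 or 3, up to 0.0796, and Col5a2 without any PBS array or day 27 replicate 1 or 3, up to 0.0825. The Col1a2 call on day 35 was lost without PBS replicate 1 or day 35 replicate 2, with adjusted p up to 0.128.

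Other small leucine-rich proteoglycans were little measured: 4 of 11 passed the filter and none was called in any comparison, with 1 at an unadjusted p under 0.05, late against early. Kera and Epyc, which follow Dcn and Lum in the RefSeq order of the GRCm38.p6 assembly, and Omd and Aspn beside Ogn were among those not tested. Of 25 other small secreted matrix proteins, 17 were tested. Igfbp7, which binds insulin-like growth factors and vessel matrix, fell by 0.31 on day 27 (SE 0.072, adjusted p = 0.0227 in limma) and by 0.38 on day 35 (adjusted p = 0.00387). It was the only 1 of the 17 called on those days, against 2.6% and 5.58% of all tested probe sets of array A called lower. Its day 27 call was lost without PBS replicate 2 or 3 or day 27 replicate 3, with adjusted p up to 0.11. With the small subunit covariate Igfbp7 stood at -0.15 on day 35 (adjusted p = 0.423). Late against early, in the fit without that covariate, Igfbp7 fell by 0.35 (SE 0.046, adjusted p = 7.25e-05 in limma). Mfap5, a microfibril protein, rose by 0.25 between early and late days (SE 0.057, adjusted p = 0.0058). In that comparison 10.4% of all tested probe sets of array A were called lower and 4.98% higher.

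Of 26 enzymes that build and sulfate glycosaminoglycan chains, 17 were tested and none was called in limma on any day, with at most 3 at an unadjusted p under 0.05. Of 13 genes of gamma-carboxylation and other Gla proteins, 8 were tested. Vkorc1, the vitamin K epoxide reductase that supplies cofactor for Mgp carboxylation, fell by 0.52 on day 35 (SE 0.12, adjusted p = 0.0117). It was the only 1 of the 8 called on that day, against 5.58% of all tested probe sets of array A called lower. That call was lost without PBS replicate 3 or day 35 replicate 2 or 3, with adjusted p up to 0.0588, and with the small subunits as a covariate Vkorc1 stood at -0.097 (adjusted p = 0.772). The carboxylase gene Ggcx had no tested probe set with that symbol alone.

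Among 27 ligands, receptors and targets of the TGF-beta and BMP pathways, 21 were tested, and 3 fell on day 35, against 5.58% of all tested probe sets of array A called lower. Tgfb1 fell by 0.27 on day 35 (SE 0.068, adjusted p = 0.0205 in limma), and Id2 and Id3, transcriptional regulators induced by BMP, fell by 0.43 and 0.27 (adjusted p = 0.00794 and 0.018). The Tgfb1 call was lost without PBS replicate 2 or 3 or day 35 replicate 2, with adjusted p up to 0.105, and the Id3 call without PBS replicate 1 or 3 or day 35 replicate 2, up to 0.101. Id2 also fell on day 27, by 0.39 (adjusted p = 0.0217), a call lost without PBS replicate 2 or 3 or day 27 replicate 1 or 3, with adjusted p up to 0.106. With the small subunit covariate none of the 3 was called on day 35: Tgfb1 stood at -0.34, Id2 at -0.10 and Id3 at -0.10, with adjusted p of 0.156, 0.677 and 0.58. Late against early, in the fit without that covariate, 3 of 21 fell, against 10.4% of all tested probe sets of array A called lower. These were Tgfb1 by 0.29, Id2 by 0.36 and Id3 by 0.23 (adjusted p = 0.000197, 0.000433 and 0.00113 in limma).

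Markers of the cells that could carry these genes were set beside the members. Of 20 fibroblast and reticular markers, 14 were tested. On day 3, 1 of 14 rose, Il7 (0.33, adjusted p = 0.0296 in limma), against 0.139% of all tested probe sets of array A called higher. On day 35, 1 of 14 rose, Pdgfra (0.30, adjusted p = 0.0491), against 1.77%. Late against early, 1 of 14 fell, Il7 by 0.27 (adjusted p = 0.000331), against 10.4% called lower. The Il7 call on day 3 was lost without PBS replicate 2 or 3 or any day 3 array, with adjusted p up to 0.174. The Pdgfra call was lost without PBS replicate 2 or 3 or any day 35 array, with adjusted p up to 0.237. The summed intensity of the 14 was 15950 to 17550 in PBS. It was 17240 to 17850 on day 1, 17260 to 18260 on day 2 and 17490 to 18390 on day 3, where Lum was highest. It was 17190 to 19470 on day 27 and 16420 to 17830 on day 35. Every treated group overlapped PBS. The mean was 16700 in PBS and higher, at 17490, 17670, 17810, 18290 and 17110, on days 1, 2, 3, 27 and 35.

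Fat cell markers were present, and of 10 tested 3 fell on day 35, against 5.58% of all tested probe sets of array A called lower. These were Pck1 by 1.23, Cidec by 0.77 and Lipe by 0.60, with adjusted p of 0.00414, 0.00598 and 0.00676 in limma, and Lipe was lost without day 35 replicate 2 (adjusted p = 0.0526). With the small subunit covariate they stood at -1.56, -0.48 and -0.22, with adjusted p of 0.118, 0.347 and 0.529. The sum of the 10 went from 26080 to 27920 in PBS to 18430 to 24840 on day 35. Mesothelial markers gave 0 calls in limma among 4 tested of 9 (1 at an unadjusted p under 0.05, on day 3), and Msln, Wt1, Krt8, Krt18 and Krt19 did not pass the filter. Smooth muscle and pericyte markers summed to 5360 to 5949 in PBS, 5955 to 6678 on day 27 and 5699 to 6105 on day 35. Of the 7 tested, Mcam fell by 0.36 on day 35 (adjusted p = 0.0205 in limma), a call lost without PBS replicate 1 or 2 or day 35 replicate 1 or 2, up to 0.114. On that day 5.58% of all tested probe sets of array A were called lower. Late against early, Tagln fell by 0.28 (adjusted p = 0.0192), a call lost without day 27 replicate 3 or day 35 replicate 2, up to 0.0693. Mylk rose by 0.23 (adjusted p = 0.0491), and that call was lost in 11 of 15 fits without 1 early or late array, up to 0.166. Between late and early, 10.4% of all tested probe sets of array A were called lower and 4.98% higher. The sum of 11 endothelial markers was 13080 to 15110 in PBS and 9399 to 11760 on days 2 to 35, with Glycam1 and Madcam1 of high endothelial venules at -1.58 and -0.78 on day 3 (adjusted p = 6.93e-07 and 0.000609 in limma). These 2 were the only endothelial markers called on any day. The median of the 11 was 0.009 on day 3, with 6 above 0, and 0.083 on day 27, with 8 above 0. Of 11 macrophage markers, 9 were tested on array A, and they summed to 15950 to 16260 in PBS. Their sums lay above PBS on day 2 (17420 to 18360) and day 3 (17830 to 18330). Those of day 1 (16090 to 17360), day 27 (15870 to 19340) and day 35 (15490 to 19130) overlapped it. Of single tested probe sets of array A, 9.5% and 9.08% lay wholly above PBS on days 2 and 3. A sum weighs the brightest genes most. Of the 10 markers tested on either array, 0 were called on day 2 and 1 rose on day 3. Adgre1 rose by 0.61, 0.65 and 0.53 on days 3, 27 and 35 (adjusted p = 0.0296, 0.00756 and 0.015 in limma). It was the only macrophage marker called higher, against 0.139%, 0.58% and 1.77% of all tested probe sets of array A. Its day 3 call was lost without PBS replicate 1 or 3 or any day 3 array, up to 0.142, and its day 35 call without PBS replicate 1 or day 35 replicate 1, up to 0.0725. Timd4, tested on array B, fell by 0.92 and 0.69 on days 27 and 35 (adjusted p = 0.0111 and 0.00964), against 0.328% and 2.88% of all tested probe sets of array B called lower. Its day 27 call was lost without PBS replicate 1 or 2 or day 27 replicate 3, up to 0.0948, and its day 35 call without PBS replicate 1 or day 35 replicate 1 or 3, up to 0.0668. Late against early, C1qc and Cd68 fell by 0.24 and 0.33 (adjusted p = 0.00681 and 0.0242), against 10.4% of all tested probe sets of array A called lower. The part of any of these cell types in the values of Lum or Mgp was not tested.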

How the data were processed

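Mesenteric lymph node RNA was measured on 2 Affymetrix arrays, 18 samples each. The authors deposited linear intensity values per probe set; no label or header names their background correction, summarisation or scaling. Control probe sets (64 per table) were left out, and the arrays already shared a scale. Values under the 20th percentile of a table (122.6 on A, 76.57 on B) were set to it and log2 was taken. A probe set was tested if it exceeded the table median (286.7 or 157.9) on at least 3 of 18 arrays, which left 12231 and 12516. Groups were compared with limma 3.58.1 in R 4.3.3 (lmFit, eBayes with trend), both arrays separately, and the script was tested on simulated data. Late is the mean of days 27 and 35, early that of days 1, 2 and 3. Gene names came from the platform annotation, through probe sets with 1 symbol (20380 and 14661), updated through RefSeq.

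The members and the 14 gene lists were chosen with earlier results of these data known. All members were named, with the brightest tested probe set of array A as the main one. From each list, up to 4 called genes per comparison with the smallest adjusted p could be named, plus Col1a1, Col1a2, Col3a1, Ggcx and Tgfb1, and the 5 genes with the highest correlation with Lum or Mgp. The number of arrays, 3 per group, limits the precision. Alternatives were other scalings, floors and filters, array weights, a replicate block, only the groups compared, each array left out in turn, 3 low-weight arrays left out, and the small subunit covariate.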

Additional observations from a re-analysis of the deposited data

Results flagged for a closer look

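Ogn differed between late and early days of treatment: the mean of days 27 and 35 lay 0.24 above the mean of days 1, 2 and 3 on the log2 scale (SE 0.053, adjusted p = 0.00428 in limma, 6 late samples above all 9 early ones). It was singled out because late and early treated samples differed by a test of that difference itself. That test does not separate the length of treatment from the age of the mice, and Ogn was not called against PBS on any day.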

How the results depend on the processing

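The number of called probe sets among the 19 of the members chosen by class changed as follows. Quantile scaling gave 3 on day 3, 3 on day 27, 2 on day 35 and 1 for late against early, and scaling to a common median gave 3, 3, 0 and 1. Without the filter on dim probe sets, day 3 gave 1 and late against early 1. Requiring all 18 arrays above the median gave 0 on day 3, 0 on day 27 and 0 for late against early, where fewer probe sets were tested. Array weights gave 2 on day 2, 3 on day 3, 6 on day 27, 1 on day 35, 3 for late against early and 2 for day 35 against day 27. The small subunit covariate gave 3 on day 27. Fitting only the groups compared gave 0 on day 3 and 1 on day 27. Leaving out the 3 arrays of low weight gave 6 on day 27 and 1 on day 35. With 1 array left out, the count ranged from 0 to 2 on day 3, from 1 to 3 on day 27 and from 1 to 2 for late against early. Apart from fewer genes or samples, the cause was not tested. The Ogn call, late against early, held in all 11 settings that tested it, with adjusted p up to 0.048.

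With the mean of the small respiratory subunits in the fit, Mgp on day 35 turned to 0.33, and late against early Vkorc1 turned to 0.035, Tagln to 0.081 and Lipe to 0.025. Among the main probe sets of the members, 11 changes that were not called became so under array weights, quantile scaling or fewer arrays, among them Bgn on day 35 (0.27 to 0.30) and Dcn on day 27 (0.22 to 0.23). With the covariate the same changes were 0.015 for Bgn and 0.065 for Dcn, not called. Since that covariate nearly coincided with the late groups, values under it are not corrected estimates.

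A fit with the replicate number as a block gave 0, 0, 2, 2, 0, 2 and 0 calls for days 1, 2, 3, 27 and 35 against PBS, late against early and day 35 against day 27, the same counts as without it. On array A same-numbered samples of PBS and a treated group correlated between -0.25 and 0.37 in their deviations. For PBS with day 3 and with day 35 all 3 correlations were above 0 and 2 were over 0.1. On array B all 3 passed 0.1 only for PBS with day 2 and PBS with day 35. The labels give the number no meaning.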
